A study of Mus musculus with 2 samples.

Results

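Histone H2A is one of the core proteins that wrap DNA into nucleosomes, and 4 genes encoding it carried a named probe on arrays hybridised with mouse kidney RNA. They are the probes whose RefSeq accession belongs to H2ac18, H2ac19, H2ac23 or H2al2b, 4 of the 112 genes that could be named among 59701 transcript probes. H2ac18, H2ac19 and H2ac23 belong to the replication-dependent H2A genes, and H2al2b is a testis variant. The kidneys came from male mice, and 2 Agilent 1-colour arrays were used, 1 for RNA of left and 1 for RNA of right kidneys. The design text was taken to mean that 3 kidneys were mixed for each array, although its wording does not settle this. The strain, the age and any treatment of the mice were not given in the sources used here. With 1 array per side and 1 spot per probe there was no replicate, no test could be made, and every value below describes these arrays only.

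Replication-dependent histone genes are transcribed mainly while a cell copies its DNA, and most of their messenger RNAs end in a conserved stem-loop bound by the protein Slbp in place of a poly(A) tail. Priming from the poly(A) tail therefore misses most of these transcripts, whereas random priming does not depend on it, and some genes of this class are also known to give polyadenylated RNA in differentiated cells. H2A variants of the H2al family are short, divergent forms known from spermatids, the germ cells in which histones give way to transition proteins and protamines. The labels' protocols describe removal of ribosomal RNA and random priming along whole transcripts, so the arrays could in principle report both kinds of histone RNA.

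The stretches upstream of the annotated transcript starts show which members share sequence there, and are therefore printed for all 4. Each is the 250 bases before the start as given by RefSeq on build GRCm38.p6, read 5′ to 3′ in the direction of the gene. They lie at chr3:96245247-96245496 (plus strand) for H2ac18, chr3:96240375-96240624 (minus strand) for H2ac19, chr13:21810117-21810366 (plus strand) for H2ac23 and chrY:2720675-2720924 (minus strand) for H2al2b. Capitals mark the motif CCAAT, which as background is a common element of histone promoters, on either strand (CCAAT or ATTGG).
H2ac18: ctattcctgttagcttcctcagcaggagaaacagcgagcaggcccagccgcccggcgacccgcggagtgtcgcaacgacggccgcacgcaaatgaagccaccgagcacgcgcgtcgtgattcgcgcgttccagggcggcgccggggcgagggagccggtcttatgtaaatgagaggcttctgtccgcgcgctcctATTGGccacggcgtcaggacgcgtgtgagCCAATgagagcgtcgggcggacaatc
H2ac19: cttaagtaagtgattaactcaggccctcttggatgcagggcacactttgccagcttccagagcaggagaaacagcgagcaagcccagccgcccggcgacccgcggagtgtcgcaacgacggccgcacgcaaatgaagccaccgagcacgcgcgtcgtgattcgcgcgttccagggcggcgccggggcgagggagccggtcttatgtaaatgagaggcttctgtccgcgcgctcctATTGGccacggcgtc
H2ac23: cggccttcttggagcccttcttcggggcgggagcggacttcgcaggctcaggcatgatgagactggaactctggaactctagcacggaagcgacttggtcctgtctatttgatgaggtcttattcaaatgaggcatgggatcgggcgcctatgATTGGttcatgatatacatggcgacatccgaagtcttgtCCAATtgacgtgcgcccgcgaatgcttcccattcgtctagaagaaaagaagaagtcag
H2al2b: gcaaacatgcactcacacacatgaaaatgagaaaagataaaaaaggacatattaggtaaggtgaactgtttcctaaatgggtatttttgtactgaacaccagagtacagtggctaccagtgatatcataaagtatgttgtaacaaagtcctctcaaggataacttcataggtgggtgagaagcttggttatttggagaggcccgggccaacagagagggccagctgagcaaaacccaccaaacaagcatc

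H2ac18 and H2ac19 shared an unbroken run of 169 identical bases within these windows, 67.6% of their length. Within these windows the run reached the annotated start of H2ac19, where the printed window stops, and ended 40 bases before the start of H2ac18. It reached 219 bases when the first 50 bases after the start were included. Its extent beyond those bases was not examined. No other pairing of the 4 windows shared more than 8 bases in a row. In the RefSeq gene table H2ac18 and H2ac19 are direct neighbours on chromosome 3, with 0 genes between them. They lie on opposite strands, with transcription running apart. Their printed windows do not overlap, so the shared run is present at 2 separate places. H3c15 and H3c14, genes for histone H3, flank them on either side. H2ac23 lies on chromosome 13 between H2bc23 and H4c17, genes for histones H2B and H4. H2al2b lies on chromosome Y.

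CCAAT was found 55 and 26 bases before the start of H2ac18, 15 bases before that of H2ac19, and 97 and 58 bases before that of H2ac23. It was not among the letters of the H2al2b window. Over all 32851 promoters of the table, 33.8% held the motif on either strand within the same 250 bases. Among 63 promoters whose gene symbol marks a histone H1, H2A, H2B, H3 or H4 gene, a set chosen after seeing the data that includes 3 of the members, 50 (79.4%) did. The motif TATAAA, searched on both strands, was in none of the 4 windows. It was in 12.4% of all promoters and in 28 (44.4%) of the 63 histone promoters. In the first 50 bases after the annotated start, TATAAA began at base 12 in H2ac18, and CCAAT at base 15 in H2ac19 and base 1 in H2ac23. The starts of H2ac18 and H2ac19 are offset by 40 bases within their shared run, so the windows cut it at different places. The CCAAT at base 15 of H2ac19 matches that 26 bases before the start of H2ac18. The place in H2ac19 matching TATAAA in H2ac18 lay beyond the bases searched. These matches describe letters in fixed windows, and no binding was measured here. GC content was 65.6% for H2ac18, 63.6% for H2ac19, 52.4% for H2ac23 and 42.4% for H2al2b.

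The probes of H2ac18 and H2ac19 were among the brightest on both arrays, and that of H2al2b gave a weak signal on both. The probe of H2ac23 lay just above the detection limit on the left and below it on the right. The replication-dependent genes therefore did not form a group of like signal: the 2 neighbours on chromosome 3 ranked far up, and the third gene ranked below the testis variant. Well above background, as the scanning software judges each spot, were 4 of 4 members on the left array, where 60.4% of all transcript probes passed, and 3 of 4 on the right array, where 65.5% passed. Only 123 probes carried a RefSeq accession, against 59701 that were ranked. What the other probes target was not examined. Ranks and shares are therefore places among the probes of this array, and not among the genes active in kidney. Probes also differ in how well they bind and what else they bind. A rank thus states the place of a probe on its array and not the amount of a transcript relative to another. In RNA of whole kidney, fewer cells of a type and less RNA per cell cannot be told apart.

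H2ac18, probed through NM_013549, had a processed signal of 55913 ± 5591 in left kidney and 52526 ± 5253 in right kidney. Processed signal is the spot's intensity after the software's background subtraction, and the error is the software's own estimate for that spot. On the log2 scale relative to the 75th percentile of each array, the level was 7.001 in left and 6.91 in right kidney. The probe ranked 1084 of 59701 (left) and 1086 (right), within the top 1.82% on both arrays. Moving the signal up or down by its error placed it between ranks 1000 and 1193 in left kidney, and 1000 and 1191 in right kidney.

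H2ac19, probed through NM_178212, had a processed signal of 51687 ± 5169 in left kidney and 54152 ± 5415 in right kidney. Its scaled log2 level was 6.89 in left and 6.96 in right kidney. It ranked 1152 on the left (1069 to 1273 within the error) and 1054 on the right (981 to 1161). The rank intervals of H2ac18 and H2ac19 overlapped on each array, and H2ac18 had the higher place on the left and H2ac19 on the right. The spots lay far apart on the array, in rows 98 and 353, and neither was saturated. H2ac18 and H2ac19 share upstream sequence, but no transcript or probe sequences were compared here, and how far each probe also binds the other gene's RNA, or that of further H2A genes, was not tested.

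H2ac23, probed through NM_001177544, gave 39.1 ± 8.0 in left and 15.1 ± 5.7 in right kidney. The dimmest probe that still counted as well above background had a signal of 33.2 on the left array and of 27.2 on the right array, so the left value lay just above the limit and the right value below it. Its scaled log2 level on the left was -3.48, at rank 34936 of 59701. On the right it was not well above background, at rank 45061. The files also hold spots of 20 probes named as negatives, which serve as a measure of signal without a target. Of 1158 such spots without an outlier flag on each array, 52 (4.49%) were brighter than H2ac23 in left kidney and 204 (17.6%) in right kidney.

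H2al2b, probed through NM_001113395, gave 126 ± 14.4 in left and 115 ± 12.8 in right kidney. This was 3.78 (left) and 4.22 (right) times the dimmest signal counted as well above background. The brightest negative spot reached 57.6 (left) and 72.0 (right), below H2al2b on each array. Its scaled log2 level was -1.80 (left) and -1.92 (right), and its rank 23724 (top 39.7%) and 24737 (top 41.4%). H2al genes form a family of similar copies, and which of them, or what other RNA, the probe binds in kidney was not tested.

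**Figure D1:**
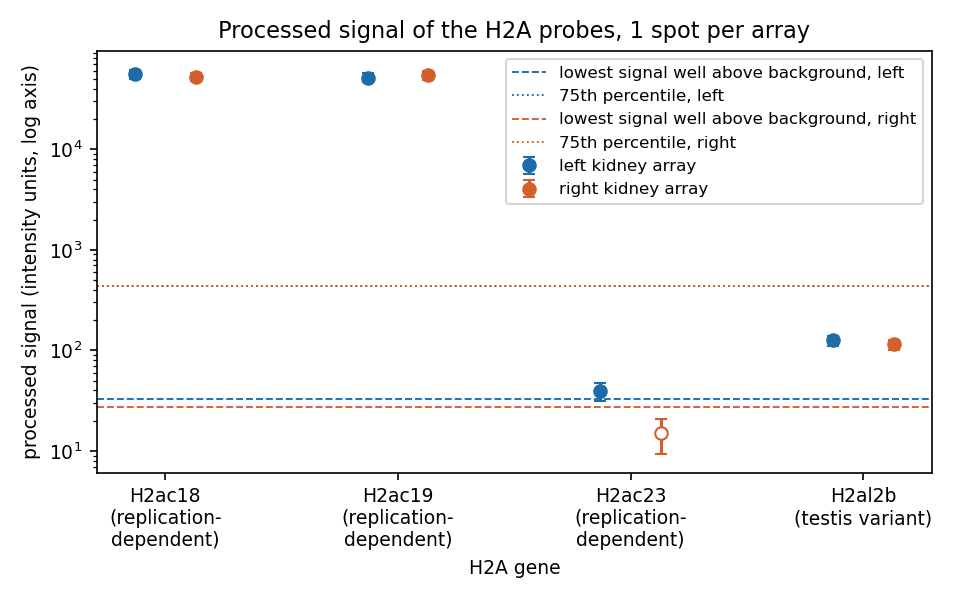
Processed signal (intensity, log axis) of the 4 H2A probes on the left and right kidney arrays, 1 spot each. Bars are the software's error, an open point is not well above background, dashed lines mark the lowest signal well above background (33.2 left, 27.2 right) and dotted lines the 75th percentile (436.5 left, 435.4 right). H2ac18 and H2ac19 lie between 51687 and 55913, and H2al2b between 115 and 126. H2ac23 lies just above its dashed line on the left (39.1) and below it on the right (15.1).

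**Figure D2:**
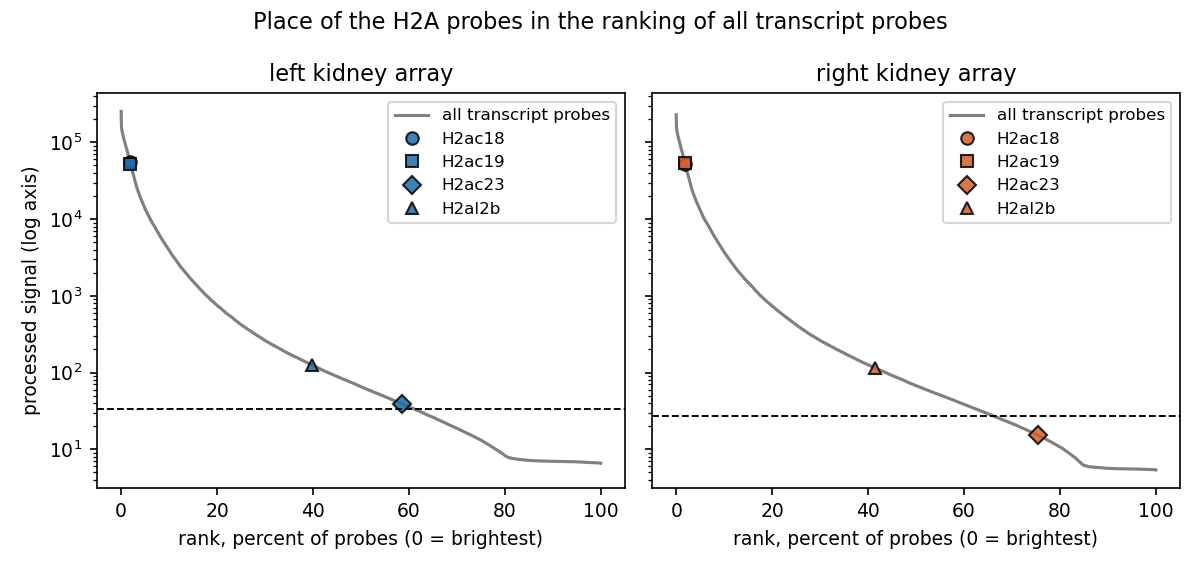
Processed signal (log axis) of all 59701 transcript probes in order of brightness on each array, with rank as a percent of probes on the horizontal axis. Markers show the 4 H2A probes and the dashed line the lowest signal well above background. H2ac18 and H2ac19 sit between 1.77% and 1.93%, H2al2b at 39.7% (left) and 41.4% (right), and H2ac23 at 58.5% and 75.5%.

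Left and right kidney differed little in the members measured on both arrays. None of these 3 members was 2-fold apart, against 1.08% of 35367 probes above background on both arrays, and none was 1.5-fold apart, against 5.11%. At such background shares, 0 of 3 does not set the H2A genes apart. Differences are left minus right on the scaled log2 scale, and their error combines the software's errors of both spots.

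H2ac18 was 1.06-fold higher on the left, a difference of 0.09 ± 0.20. H2ac19 was 1.05-fold higher on the right, at -0.07 ± 0.20. Both differences were smaller than their error. The software gave the same error, 10% of the signal, for both genes on both arrays, so this comparison says little about these spots. The robust SD of other probes within 0.25 log2 of the same brightness was 0.109 over 342 probes for H2ac18 and 0.112 over 337 probes for H2ac19. Those like probes had median differences of 0.076 and 0.077, so that H2ac18 lay 0.01 above and H2ac19 0.15 below the median of its range, the latter further than its robust SD. The difference of H2ac19 itself also passed 0.112 in size under quantile normalization (-0.15), cyclic loess (-0.14) and scaling on probes above background on both arrays (-0.12). The 2 neighbouring genes thus pointed in opposite directions, with a mean of 0.008. The gap between their differences was 0.16 ± 0.29, within an error that rests on the same 10%.

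H2al2b was 1.09-fold higher on the left, at 0.13 ± 0.23. The difference as reported was smaller than its error and than the robust SD of 0.238 among 3027 probes of like brightness, whose median was -0.040. With normexp background correction its sign turned, to -0.06. Set beside the replication-dependent genes, whose measured differences were 0.09 and -0.07, the testis variant showed no difference beyond its error either, and these values overlap within their errors.

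H2ac23 was above background on the left array alone, as were 1.14% of all probes, while 6.26% were above background on the right alone. Its left signal against the lowest signal well above background on the right gives at least 1.43-fold higher on the left, a log2 bound of 0.52. The bound compares normalized signals, with each array divided by its 75th percentile, and it depends on the floor. With the 95th percentile of the negative spots on the right (41.0) as the floor, added after seeing the data, the log2 value was -0.07 and no bound remained. Leaving out the 2 bright negative probes put that floor at 17.4 and the bound at 1.17. The software's error on the left signal was 20.4%, which reaches below the detection limit of that array. On the linear scale the spots differed by 23.97 ± 9.83. With no background filter its measured spots were past 2-fold, as were 8.83% of all probes. The 18 tested probes nearest to it on the array had a median difference of 0.24 in the same direction, and subtracting this left a bound of 0.28. Like probes here were those above background on both arrays whose mean log2 signal lay within 0.25 of H2ac23's left signal. Their robust SD was 0.346, and H2ac23 itself did not pass that filter. The part of spot position in the value was not tested further.

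**Figure D3:**
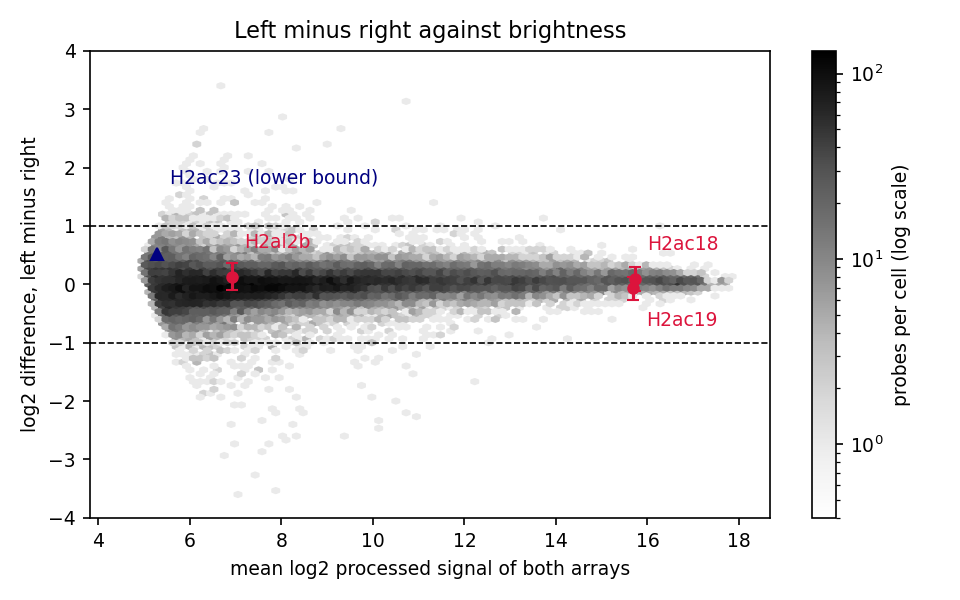
Log2 difference, left minus right, against mean log2 processed signal of both arrays, for 35367 probes above background on both (grey, shaded by the number of probes, log scale). Red points are H2ac18, H2ac19 and H2al2b with the combined software error, the blue triangle is the lower bound of H2ac23 drawn at its left signal, and dashed lines mark 2-fold. The red points lie within their errors of 0, which for H2ac18 and H2ac19 rest on 10% of the signal per spot. All 4 markers lie between the dashed lines, but that of H2ac23 is a lower bound and does not place the gene within 2-fold. With no background filter its measured log2 difference was 1.37, beyond the lines. Not drawn are 3 probes beyond a log2 difference of 4 either way.

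Other named genes with values most like those of the members were taken by 2 measures, the nearest left minus right difference and the nearest mean rank over the 2 arrays. With 2 arrays, the first measure rests on a single number per gene. H2ac23, not measured on both arrays, was left out. Nearest in difference to H2ac18 (0.09) were Tmlhe, an enzyme of carnitine synthesis, at 0.10 and Ppia, cyclophilin A, at 0.08. Nearest to H2ac19 (-0.07) were Gm6710 at -0.06 and AY761185 at -0.08. Nearest to H2al2b (0.13) were the vomeronasal receptor gene Vmn1r241 at 0.13 and Gusb, lysosomal beta-glucuronidase, at 0.11.

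Nearest in rank to both H2ac18 and H2ac19 were Hsp90ab1, a cytosolic chaperone, at ranks 951 (left) and 1076 (right), and Hprt, a purine salvage enzyme, at 1342 and 1267. Among all 112 named genes H2ac18 held place 6 (left) and 7 (right), and H2ac19 places 7 and 5. Nearest in rank to H2al2b were Vmn1r157, at 24418 and 24530, and Gm20823, at 23476 and 24297. H2al2b held places 51 and 54 among the named genes, and H2ac23 places 71 and 85.

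Few other genes of the same biology could be named on these arrays. Of 103 other histone genes, 15 genes of histone messenger RNA processing and 16 genes of S phase and proliferation, 0 had a named probe, so whether they follow the members has no value here. The same held for 16 kidney markers and for markers of testis, blood and immune cells, adipose tissue and adrenal gland, so the labelled tissue could not be checked against its markers. Of 24 spermatid and testis genes, 4 had a named probe. Ssty2, a Y-linked spermatid gene, was well above background on both arrays, at 50.8 (left) and 64.1 (right), with a difference of -0.34, about the robust SD of 0.333 at its brightness. Ssty1 and Sly, Y-linked spermatid genes as well, and Ldhal6b, a lactate dehydrogenase-like gene, were not well above background on either array.

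H2al2b was also set beside the named genes of its chromosome, a comparison chosen after seeing the data. Of 22 other named genes on chromosome Y, 6 (27.3%) were well above background on both arrays, against 59.2% of all probes. H2al2b ranked 2 among these 23 genes on the left, after Gm20823, and 3 on the right, after Gm20823 and Gm20738.

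**Figure D4:**
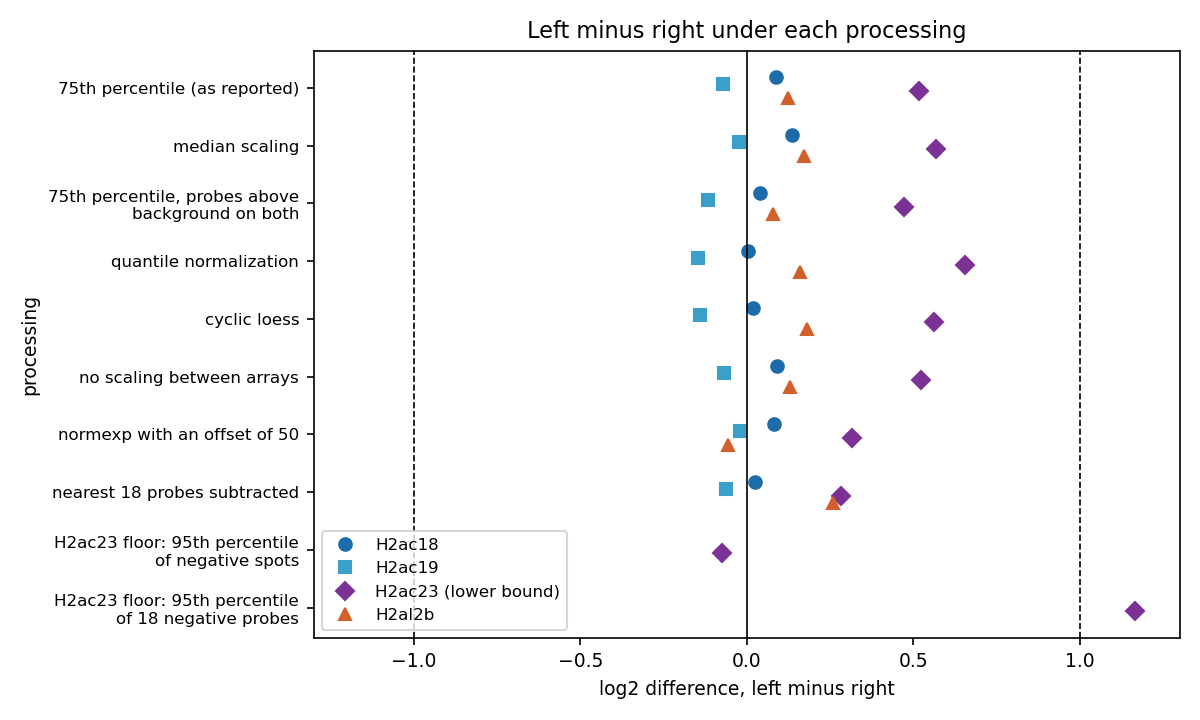
Log2 difference, left minus right, of the 4 H2A genes under each way of processing, with the value reported in the text in the top line and dashed lines at 2-fold. H2ac18 stays between 0.004 and 0.135, H2ac19 between -0.147 and -0.020, the lower bound of H2ac23 between 0.28 and 0.66 except with floors set on negative spots (-0.07 and 1.17, lowest lines), and H2al2b between -0.057 and 0.258, turning negative under normexp alone.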

How the data were processed

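Processed intensities of 1 array per side were used, as deposited by the authors. Per the file headers, 1 fluorescence channel was read and each intensity is background-subtracted and detrended within its array, with no normalization between arrays; the labels name biotin. Per the submitters' processing notes the software was Agilent Feature Extraction 11.0.1.1. The authors' deposited value table equals these intensities in all 62513 rows of each array (relative tolerance 1e-05).

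Levels are log2 processed signals relative to the 75th percentile of the 59994 transcript spots, which exclude controls and probes named as negatives. Spots with outlier flags (34 left, 20 right) were dropped, and the mean was taken over the remaining spots of each probe. No spot was saturated. The software's error was 10% of the signal for H2ac18 and H2ac19, and a larger percentage for the dimmer H2al2b and H2ac23. Of 123 probes with a RefSeq accession, 116 matched the GRCm38.p6 gene table, which served for names and gene order; the array grid is of another build. All 4 members were named, as were the 2 genes nearest in difference and in rank to each of the 3 members measured on both arrays, and every listed gene with a named probe. The members and lists were chosen with earlier results of these data known. Normexp used median spot signals, since mean spot signals were not available. Alternatives covered scaling, background correction, detection rule, filter and size limit. Software was R 4.3.3 (limma 3.58.1) and Python 3.11.15 (numpy 2.4.6, pandas 2.3.3, matplotlib 3.10.9).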

Additional observations from a re-analysis of the deposited data

How the results depend on the processing

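Without a background filter, 1 of 4 members passed 2-fold in place of 0 of 3. It was H2ac23, whose right signal was not well above background, and 8.83% of all 59701 probes passed under that setting. The count stayed at 0 with a stricter filter that tested H2ac18 and H2ac19 alone, at a limit of 1.5-fold, with normexp and with quantile normalization. Over 7 alternatives each, the sign was kept by H2ac18 and H2ac19, and by H2al2b in 6 of 7 (-0.06 with normexp). The normexp offset of 50 shrinks dim differences by construction but does not by itself turn a sign. Normexp also corrects for local background, which for H2al2b was 44 (left) and 30 (right), under spot medians of 226 and 219.5. The part of local background in the turned sign was not tested. The values of H2ac18, H2ac19 and H2al2b moved by less than the robust SD of like probes, although H2al2b after correction by its nearest probes (0.26) passed that SD. The bound of H2ac23 kept its sign in 8 of 9 and moved further than the robust SD with a floor at the 95th percentile of negative spots (a log2 value of -0.073, hence no bound) or of 18 negative probes (1.17). Ranks moved by less than the software's error in 16 of 16 cases. All 4 members passed on the left under each detection rule tried; on the right H2ac23 passed only where any signal significantly above background counted, as 85.5% of all probes did. The correction by the 18 nearest probes, the limit without 2 bright negative probes and both floors on negative spots were chosen after seeing the data. No paired analysis was possible because each side has 1 array, which also means that no replicate could be left out. Left and right pools were read at different array positions, so side and position cannot be told apart.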
